A study of Arabidopsis thaliana with 6 samples.

Results

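Flavonoid biosynthesis was followed through 8 enzyme probe sets, a list of rows given by identifier for the steps of the pathway, out of 22746 probe sets that are not controls. They were 250207_at (CHS), 251827_at (CHI), 250794_at (CHIL), 252123_at (F3H), 250558_at (F3'H), 250533_at (FLS1), 249215_at (DFR) and 246468_at (UGT78D2). The platform annotation named 3 of the 8, CHIL (AT5G05270), DFR (AT5G42800) and UGT78D2 (AT5G17050). The other 5 were not listed there and carry the names under which they were chosen. RNA came from 1 cm root tips of Arabidopsis seedlings grown for 7 days in darkness on a sucrose-containing agar medium. One group then received 1 h of red light with a peak at 630 nm, at 12 to 14 µmol per square metre and second, and the other group stayed in darkness for 1 h. Each group had 3 arrays, described by the labels as biological replicates, and each RNA was a pool of tips from several plates. The labels name no mutant or transgene.

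Flavonoids are made from a phenylpropanoid precursor and malonyl-CoA. CHS builds the chalcone skeleton, CHI closes its ring, F3H and F3'H add hydroxyl groups, FLS1 turns the dihydroflavonols into flavonols, DFR diverts them towards anthocyanins and tannins, and UGT78D2 attaches glucose to the 3-position of flavonols and anthocyanidins. In Arabidopsis seedlings the early genes of this pathway are known to be switched on by light through the transcription factor HY5, and flavonols in roots are known to influence auxin transport.

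The arrays fell into 2 classes by the signal ratio between the 3' and 5' control probe sets of GAPDH, a measure of how far the labelled target reaches towards the 5' end. Red light 1, dark 1 and dark 3 had ratios of 20.2 to 26.2, and red light 2, red light 3 and dark 2 had ratios of 0.981 to 1.45. Each class held arrays of both groups, so every change below is given from a limma fit with group alone and from a fit with array class as a second term. Among 17 root marker genes, 3 had a named probe set (EXPA7, EXPA18 and XTH26, all of root hairs), and their summed signal was 474.3 to 3172 in red light and 1377 to 3472 in the dark. Among 16 nuclear photosynthesis genes used as shoot markers, 6 had a named probe set. Their summed signal was 869.0 to 2744 in red light and 1361 to 2544 in the dark.

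Of the 8 enzymes, UGT78D2 alone lay above the filter on dim probe sets, a geometric mean signal of 88.4 over the 6 arrays. The geometric means of the other 7 ran from 18.2 (CHIL) to 56.7 (DFR). As a measure of the floor, 27 control probe sets for Bacillus subtilis transcripts had medians of 6.40 to 14.2 on the 6 arrays and highest signals of 17.1 to 90.5. UGT78D2 exceeded the highest of them on 6 of 6 arrays and DFR on 5 of 6. F3H exceeded it on 3 of 3 red light arrays and 0 of 3 dark arrays, and CHIL on 2 of 3 red light arrays and 0 of 3 dark arrays. CHI and F3'H exceeded it on 3 of 6 arrays each, and CHS and FLS1 on 2 of 6 each, in every case with 1 dark array, dark 3, among them. The highest control was 17.1 on red light 3 and 90.5 on dark 3. F3H was at 41.1 and 38.6 there, so close signals fell on opposite sides of it. The same held for CHIL, at 44.4 and 33.2. F3H exceeded the median control on 6 of 6 arrays, and CHIL on 5 of 6. Whether these bacterial transcripts had been spiked in is not given in the sources used here, and brightness is not comparable between probe sets as an amount of mRNA.

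**Figure D1:**
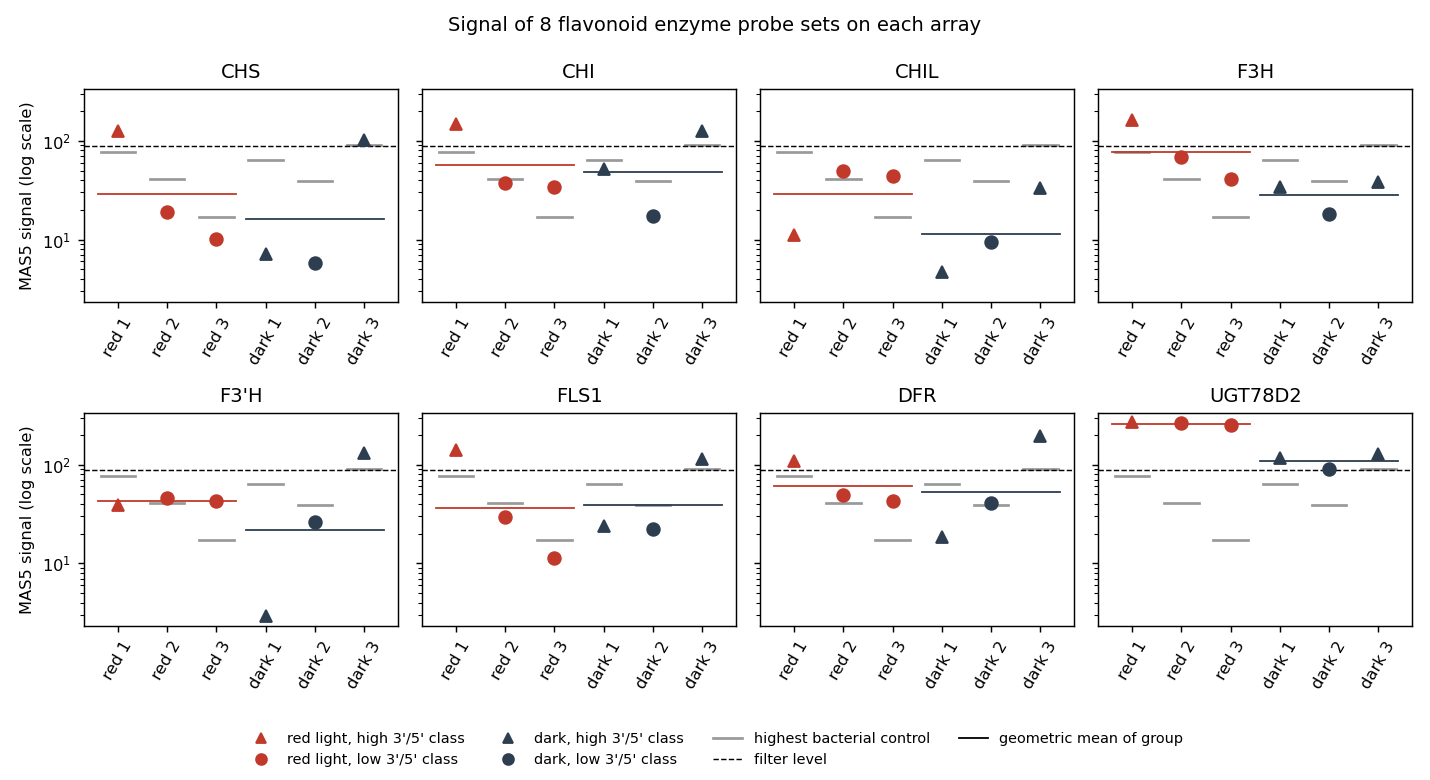
MAS5 signal (log axis) of each enzyme on each array, with the red light arrays left of the dark arrays. Triangles are arrays of the high 3'/5' class and circles those of the low class, coloured lines are geometric means of the groups, grey bars the highest bacterial control of that array, and the dashed line is the filter level of 88.4. UGT78D2 is at 250.2 to 268.7 on the red light arrays, above every dark array, while CHS, CHI, FLS1 and DFR are brightest on red light 1 and dark 3.

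UGT78D2, the flavonoid 3-O-glucosyltransferase, had signals of 268.7, 261.8 and 250.2 in red light 1, 2 and 3, against 115.9, 89.6 and 126.8 in dark 1, 2 and 3. All 3 red light arrays were brighter than all 3 dark arrays, and the red light arrays lay within 1.07-fold of each other. The means were 260.2 ± 9.35 in red light and 110.8 ± 19.1 in the dark (SD, n = 3 each). The change by group alone was 1.25 on the log2 scale (SE 0.30, 2.37-fold, 95% interval 0.54 to 1.95), which did not pass the test over all probe sets (limma adjusted p = 0.999). Adding array class gave 1.33 (SE 0.30, 2.52-fold, 95% interval 0.66 to 2.00), which did not pass either (limma adjusted p = 0.215). An increase at least as large was found in 0.828% of the 13647 probe sets tested by group alone and in 0.344% with array class. These shares include UGT78D2 and leave out decreases. Within the high-ratio class the change was 1.15 and within the low-ratio class 1.51. Both had to be above 0, since all red light arrays were brighter than all dark arrays. Its signal differed little between the classes, by 0.25 (SE 0.30, high-ratio minus low-ratio). An exact permutation test of 3 arrays against 3 gave p = 0.1 (2-sided), the smallest value this design allows.

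No enzyme was called in either fit. Of the 13647 probe sets tested, 258 had an unadjusted limma p under 0.05 by group alone and 939 with array class. Where nothing changes, this threshold is passed on average by more than 258 and fewer than 939. After adjustment limma called 0 (0%) by group alone, and with array class it called 17 (0.125%), none of them among the 8. Without the filter, which brought all 8 enzymes into the test, it called 0 of 22746 (0%) by group alone and 19 (0.0835%) with array class, again none of the 8. Changes of the 7 dim enzymes are given from these unfiltered fits. Their precision was low, since the median SE of a change by group alone was 1.1 among the 9099 probe sets below the filter, against 0.39 among those above it.

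At the entry of the pathway, CHS (chalcone synthase) had signals of 126.6, 18.8 and 10.2 in red light, against 7.1, 5.8 and 101.2 in the dark, for replicates 1, 2 and 3. The groups overlapped because dark 3 was almost as bright as red light 1, while the other dark arrays lay below every red light array. The change was 0.85 (SE 1.41) by group alone and 1.75 (SE 1.21, 95% interval -0.87 to 4.37) with array class. CHI (chalcone isomerase) had signals of 147.5, 37.7 and 33.8 in red light, against 51.7, 17.4 and 127.3 in the dark. Its brightest arrays were again red light 1 and dark 3, and the groups overlapped. The change of CHI was 0.24 (SE 0.91) by group alone and 0.95 (SE 0.69) with array class. CHIL, a relative of the isomerase that assists CHS and CHI without ring-closing activity of its own, had signals of 11.1, 49.4 and 44.4 in red light, against 4.7, 9.5 and 33.2 in the dark. Red light 2 and red light 3 were its brightest arrays, but red light 1 lay below dark 3. Its change was 1.35 (SE 1.12) by group alone and 1.07 (SE 1.20) with array class.

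Of the hydroxylases, F3H (flavanone 3-hydroxylase, which makes dihydroflavonols) was the second enzyme whose groups did not overlap. Its signals were 162.0, 67.9 and 41.1 in red light, against 33.7, 18.0 and 38.6 in the dark. The separation was narrow, since red light 3 and dark 3 lay close together. On all 3 dark arrays F3H lay between the median and the highest bacterial control. The size of its change thus depends on dim dark signals, and it also depends on the bright red light 1. By group alone it was 0.88 without red light 1 and 1.09 without dark 2. It was 1.51 to 1.87 when any other single array was left out. The change of F3H was 1.42 by group alone (SE 0.75, 95% interval -0.28 to 3.12) and 1.86 with array class (SE 0.72, 95% interval 0.30 to 3.42). Over all probe sets it did not pass (limma adjusted p = 0.999 by group alone and 0.838 with array class, both without the filter). Within the classes the log2 differences of F3H were 2.17 where the ratio was high and 1.55 where it was low. Both had to be above 0, since its groups did not overlap. F3'H (flavonoid 3'-hydroxylase, a cytochrome P450 that turns kaempferol-type into quercetin-type precursors) had signals of 38.9, 45.8 and 43.1 in red light, against 2.9, 26.3 and 132.3 in the dark. Its red light arrays lay within 1.18-fold of each other, whereas its dark arrays spread over 45.6-fold and enclosed them. The change of F3'H was 0.98 (SE 1.29) by group alone and 0.87 (SE 1.29) with array class.

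At the branch point, FLS1 (flavonol synthase) had signals of 141.8, 29.3 and 11.4 in red light, against 23.9, 22.3 and 112.9 in the dark. One array of each group, red light 1 and dark 3, was bright, and the remaining 4 lay between 11.4 and 29.3. Its change was -0.12 (SE 1.1, 95% interval -2.59 to 2.36) by group alone and 0.58 (SE 0.95) with array class. FLS1 was the only enzyme of the 8 whose change by group alone was below 0, and its interval spans both directions. DFR (dihydroflavonol 4-reductase) had signals of 108.9, 49.3 and 42.9 in red light, against 18.4, 40.4 and 194.3 in the dark. Its brightest array was dark 3. The change of DFR was 0.22 (SE 0.90, 95% interval -1.81 to 2.26) by group alone and 0.53 (SE 0.86) with array class.

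**Figure D2:**
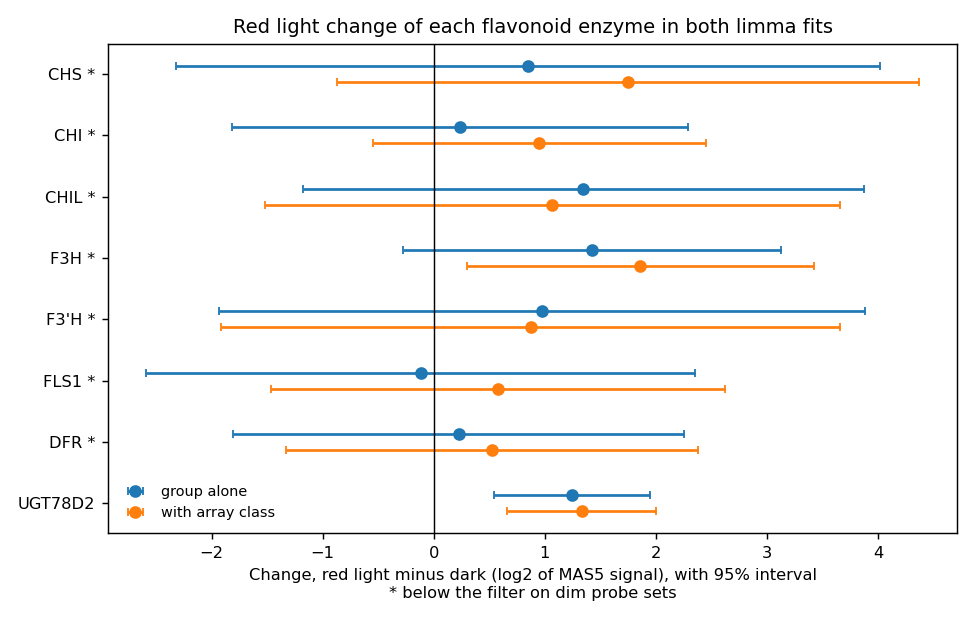
Change of each enzyme on the log2 scale (red light minus dark, x axis) in the fit with group alone and in the fit with array class, with 95% intervals. The interval of UGT78D2 lies above 0 in both fits, that of F3H only with array class (0.30 to 3.42), and those of the other 6 enzymes include 0 in both.

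Across the 8 enzymes, 7 had a change above 0 by group alone and 8 with array class. Among all 22746 probe sets the share above 0 was 46.2% by group alone and 47.3% with array class, and among those below the filter it was 43.0% and 49.5%. The median change of the 8 was 0.91 by group alone and 1.01 with array class, against -0.05 and -0.03 over all probe sets. With 32 added to each signal before the log, which damps differences near the floor, the median of the 8 was 0.19 by group alone and 0.49 with array class, against -0.03 and -0.02 over all probe sets. By group alone UGT78D2 then had a change of 1.04, F3H of 0.87, CHIL of 0.48, CHS of 0.26, CHI of 0.11, F3'H of 0.10, DFR of 0.02 and FLS1 of 0.02. With array class the values were 1.11 for UGT78D2, 1.14 for F3H, 0.37 for CHIL, 0.71 for CHS, 0.55 for CHI, 0.15 for F3'H, 0.25 for DFR and 0.44 for FLS1. The 8 probe sets share arrays and RNA pools, so their changes are not independent of each other. In whole root tips, a change in the number of cells that make a transcript and a change in its amount per cell cannot be told apart.

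The counts above 0 depended on single arrays. By group alone 4 of 8 were above 0 without red light 1, with CHS, CHI, FLS1 and DFR below, and with array class 5 of 8 were above 0 without dark 1, with F3'H, FLS1 and DFR below. Within the high-ratio class, which compares red light 1 with dark 1 and dark 3, CHS differed by 2.24, CHI by 0.86, F3'H by 0.99, FLS1 by 1.45 and DFR by 0.87, and CHIL by -0.17. Within the low-ratio class, which compares red light 2 and red light 3 with dark 2, CHS differed by 1.26, CHI by 1.04, CHIL by 2.30, F3'H by 0.76 and DFR by 0.19, and FLS1 by -0.29. CHIL and FLS1 thus had opposite signs in the classes, a difference that was not tested.

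**Figure D3:**
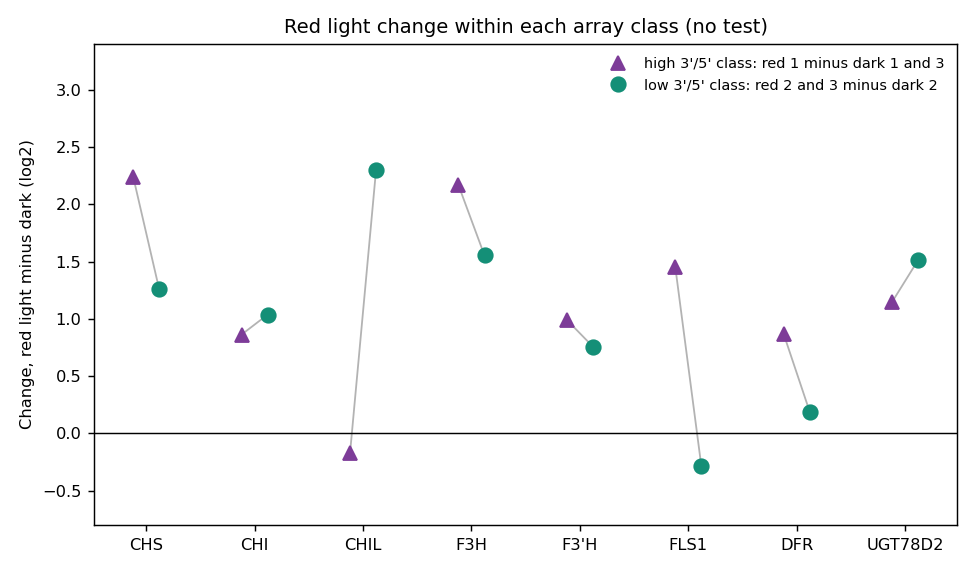
Change of each enzyme on the log2 scale (y axis, red light minus dark) within the high-ratio class (triangles) and within the low-ratio class (circles), each 1 array against 2. CHS, CHI, F3H, F3'H, DFR and UGT78D2 are above 0 in both classes, CHIL is below 0 among the triangles (-0.17) and FLS1 among the circles (-0.29).

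The signals of red light and dark did not overlap, with red light higher, for 2 of the 8 enzymes, UGT78D2 and F3H. The same held for 2.37% of all probe sets and 2.57% of those below the filter. Dark 3 decided this count. Without that array, 6 of 8 enzymes had every red light array above both remaining dark arrays, namely CHS, CHIL, F3H, F3'H, DFR and UGT78D2, against 5.87% of all probe sets and 8.52% of those below the filter. Without dark 3 the change by group alone was 2.17 (SE 1.32) for CHS, 2.28 (SE 1.17) for F3'H and 2.12 (SE 1.14) for CHIL. It was 1.17 (SE 0.79) for DFR, 0.93 (SE 0.95) for CHI and 0.65 (SE 1.18) for FLS1. Without red light 1 instead, it was -0.22 for CHS, -0.44 for CHI, -1.10 for FLS1 and -0.19 for DFR. For F3'H it was then 1.04 and for CHIL 2.04, and the SEs of these changes without red light 1 were 0.95 to 1.46. No enzyme was called without dark 3 in either limma fit, where UGT78D2 again was the tested one (limma adjusted p = 0.999 by group alone and 0.180 with array class).

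Red light 1 and dark 3 were the 2 brightest arrays for 4 of the 8 enzymes, CHS, CHI, FLS1 and DFR. This was so for 13.8% of all probe sets and for 17.8% of those below the filter. The median signal of the 8 enzymes was 134.2 in red light 1, 47.6 in red light 2 and 42.0 in red light 3, against 21.2 in dark 1, 20.2 in dark 2 and 119.8 in dark 3. Both bright arrays belong to the high-ratio class, but dark 1 of the same class was the dimmest array for CHIL, F3'H and DFR. The dim end of the scale was raised on dark 3 and, by less, on red light 1. The lower quartile of all signals was 43.7 in red light 1 and 54.9 in dark 3, and 30.3 to 41.9 on the other 4. The highest bacterial control was 77 in red light 1 and 90.5 in dark 3, and 17.1 to 63.5 on the others. The median bacterial control was 14.2 in dark 3, but 8.0 in red light 1, within the 6.4 to 9.6 of the others. Of the 6 shoot markers, PSBW, PSAE1, PSAN and PSBY were also brightest on these 2 arrays, with PSAE1 at 324.1 in red light 1 and 467.7 in dark 3 and at most 98.2 elsewhere. LHCB4.1, an antenna protein of photosystem II, was at 494.2 and 633.0 there, within its range of 374.8 to 641.1 over all arrays, and RCA, the Rubisco activase, was at 259.5 and 232.7, with 67.4 to 237.8 elsewhere. Of the root hair markers, EXPA7 was at 16.6 in red light 1, against 139.6 to 668.2 on the other 5 arrays. EXPA18 was at 155.7 in red light 1, against 478.8 to 1720 on the others, and XTH26 at 302.0, against 565.4 to 1163. In dark 3 these markers were at 164.5, 647.4 and 565.4. In dark 1, where the enzymes were dim, they were at 139.6, 478.8 and 789.9. Each marker was lower on every high-ratio array than on any low-ratio array. The lowest summed root marker signal, 474.3, was that of red light 1. The part of these differences in the enzyme signals was not tested.

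Of the 8 enzymes, CHI alone passed the test for array class. In the unfiltered fit CHI was higher in the high-ratio class by 2.13 (SE 0.69, 4.39-fold, limma adjusted p = 0.0440). The corresponding class differences of CHS and FLS1 were 2.70 (SE 1.21) and 2.09 (SE 0.95), with limma adjusted p-values of 0.137 and 0.141. That is 1 of 8 enzymes. The share of all 22746 probe sets called for class in that fit was 21.2%, and in the filtered fit it was 36.8%.

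Few other genes of the pathway could be examined. Of 22 further flavonoid enzymes and transporters, 7 had a named probe set and 1 was tested, with 0 called in either direction. That gene, UGT89C1, a flavonol 7-O-rhamnosyltransferase, had signals of 163.5, 564.2 and 515.5 in red light, against 122.9, 312.0 and 151.8 in the dark. Its change was 1.01 (SE 0.57) by group alone and 0.52 (SE 0.27) with array class, and it was lower in the high-ratio class by a log2 difference of -1.46 (SE 0.27). Of 22 regulators, KFBCHS, an F-box protein that marks CHS for degradation, was the only one with a named probe set, and it had a change of 0.02 (SE 0.50) by group alone and -0.42 (SE 0.21) with array class, without being called. Of 12 light regulators 1 had a named probe set, HYH, which lay below the filter, and of 11 phenylpropanoid entry enzymes 0 had one.

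The named probe sets whose log2 signals followed UGT78D2 most closely over the 6 arrays, among 7330 compared, were those of AT1G13670 (Pearson r = 0.978), psaB (0.968), GSTU25 (0.957), VTC4 (0.953) and AT4G15010 (0.928). These correlations describe 6 arrays that also share treatment and array class. GSTU25, a glutathione S-transferase, had signals of 2325 to 3016 in red light and 1267 to 1682 in the dark. VTC4, a phosphatase of ascorbate synthesis, had signals of 541.4 to 579.9 in red light and 394.5 to 471.9 in the dark, and its change with array class, 0.36, was smaller than the 1.33 of UGT78D2. Of the 5, AT1G13670 and psaB were called with array class (limma adjusted p = 0.0374 and 0.0225), and GSTU25, VTC4 and AT4G15010 were not (0.323 to 0.881). Since the groups of UGT78D2 do not overlap, choosing by likeness to it favours probe sets that are higher in red light. The direction of these calls is therefore not a separate result.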

How the data were processed

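The values are linear intensity summaries by the authors, 1 for each probe set on each array. Per the submitters' processing notes they came from MAS5, whose version and detection calls are not given in the sources used here. From 22810 rows, 64 control probe sets were set aside. The deposited intensity was taken as log2 with no pseudocount. Probe sets whose mean log2 value exceeded the 40th percentile (13647) were fitted with limma 3.58.1 (eBayes with trend and robust, statmod 1.5.0, R 4.3.3), as red light minus dark, with group alone (4 residual degrees of freedom) and with array class added (3). Array class was split at the widest gap in the GAPDH 3'/5' ratio. The Benjamini-Hochberg adjustment ran over all probe sets fitted, with 2-sided p-values and a threshold of 0.05. Enzymes below the filter were taken from the same fits without it. The number of arrays limits the precision. Genes were named through the platform annotation and RefSeq locus tags (TAIR10.1, names only), which gave 1 gene for 13513 probe sets, several for 503 and none for 8730.

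The text names all 8 enzymes, up to 3 tested genes of each pathway list by the size of the moderated t with array class, and the 5 named probe sets most like the tested enzyme. Marker genes are named beyond that rule, as are HYH and the dim enzymes of the wider pathway, after their values were seen. The members and lists were chosen with earlier results of these data known. Alternatives covered scaling, pseudocount, filter, variance model, array weights, a replicate block and leaving out each array.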

Additional observations from a re-analysis of the deposited data

How the results depend on the processing

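By group alone, the count of enzymes called was 0 in 13 of 14 alternatives and 1 with array weights, where UGT78D2 had a change of 1.11 (limma adjusted p = 0.0326) and 16.6% of all probe sets tested were called, 2261 of 13647. With array class it was 0 in 14 of 14, with array weights included. In both fits UGT78D2 alone was tested, except with no filter (8 enzymes) and with the filter at the 20th percentile (7). Elsewhere no other enzyme could be called. The change of UGT78D2 stayed above 0 throughout, from 1.04 to 1.35 by group alone (limma adjusted p of 0.0326 to 1) and from 1.11 to 1.51 with array class (0.116 to 0.574). F3H also stayed above 0, from 0.83 to 1.87 by group alone and from 1.14 to 2.17 with array class. For both enzymes the sign was fixed in most alternatives, since their red light and dark signals do not overlap. Only the alternatives that rescale the arrays could have reversed it. The number of enzymes above 0 by group alone was 4 with array weights and 4 to 8 when 1 array was left out, and with array class it was 5 to 8 when 1 array was left out. The count of enzymes that differed between the classes was 1 with no filter and 1 with the filter at the 20th percentile, CHI in both, against 0 where UGT78D2 alone was tested. The count of enzymes whose groups did not overlap was 2 to 6 when 1 array was left out. It could not fall below 2, since groups that are apart stay apart. Of all probe sets, 4.19% to 12.0% were apart with red light higher when 1 array was left out. The share was 5.87% without dark 3, with 6 enzymes apart, and 12.0% without red light 1, with 3. With replicate number as a replicate block, 0 enzymes were called, with UGT78D2 the only one tested. The changes by group alone did not move, which was fixed in advance because each number holds 1 array of each group. With array class and the block, UGT78D2 had a change of 1.38, F3H of 2.09 and CHI of 1.31, while CHS had 2.93, F3'H 2.27, CHIL 1.81, FLS1 1.48 and DFR 1.43, each over 1.5 times its value without the block. Deviations from the group means correlated at 0.58, 0.64 and -0.32 for numbers 1, 2 and 3, and the numbers were not taken as pairs. The correlations cannot decide on pairing, since the arrays share a class in numbers 1 and 2 but not in number 3. In the fit with array class and the block (1 residual degree of freedom), only number 3 had arrays of different classes. The red light change in that fit is therefore the mean of the differences within numbers 1 and 2. The causes of the other shifts were not tested. Signals near the floor limit the 7 dim enzymes.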

Other observations

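Of the further flavonoid enzymes with a named probe set, 6 lay below the filter, and their changes by group alone pointed both ways. UGT75C1 had a change of -1.10 (SE 1.11), UGT79B1 of -0.74 (SE 0.96), 5MAT of -0.31 (SE 1.23) and BAN of -0.01 (SE 1.13), against 0.37 (SE 1.38) for UGT78D3 and 1.91 (SE 1.21) for UGT78D1. With array class these changes were, in the same order, -0.66, -0.70, -0.41 and -0.63, against 0.91 and 2.12 (SE 1.13 to 1.36). UGT78D1, a flavonol 3-O-rhamnosyltransferase and close relative of UGT78D2, had signals of 94.5, 6.2 and 41.6 in red light 1, 2 and 3, against 5.2, 13.9 and 6.4 in dark 1, 2 and 3. Red light 1 and red light 3 were brighter than any dark array, and red light 2 was dimmer than dark 2. HYH, a bZIP factor related to HY5, had signals of 126.0, 38.1 and 50.9 in red light, against 64.5, 1.9 and 65.1 in the dark, so its groups overlapped. Its change was 1.65 (SE 1.36) by group alone and 2.75 (SE 0.97) with array class, and both depend on the signal of 1.9 in dark 2. HYH and these 6 enzymes lay below the filter, and UGT78D1 and HYH were not called without it.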
